A study of Oryza sativa with 16 samples.

Results

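Leaves of rice plants over-expressing the canonical histone H4 (OE-H4) were compared with leaves of wild type (WT) plants. Both OE-H4 leaf libraries and both WT leaf libraries were taken by their titles, which makes 4 of the 16 RNA-seq libraries of the series. All plants were indica rice of the cultivar Pusa Basmati 1, and the labels describe the leaf as mature. WT plants carried no transgene, whereas OE-H4 plants, labelled OE_H4C, carried the coding sequence of H4 behind the maize Ubiquitin promoter, which is active in most tissues. The methods describe transgenic plants as regenerated from Agrobacterium-infected calli under hygromycin selection, and the 4 libraries include none from plants transformed with an empty vector. The transgene and the passage through tissue culture can therefore not be told apart in the comparison with WT. The labels do not say whether the 2 libraries of a group came from separate plants or separate transformation events, so the p-values measure only the spread between these libraries. Leaf libraries of plants over-expressing the rice variant H4.V (OE-H4.V) or H4.Vs, a fusion of the H4.V N-terminal part to the H4 C-terminal part (OE-H4.Vs), with 2 libraries each, were used as a second reference, because these plants were also transformed. The seedling libraries of the series were read as well. They came from WT plants and from h4.v KO plants, which carry a loss of function of H4.V, and each genotype was grown without and with salt.

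Histone H4 is one of the core histones around which DNA is wrapped in the nucleosome, and its tail carries acetylation marks that are found at active genes. Canonical H4 is encoded by several near-identical genes in plants and is made mainly while DNA is replicated. In mature leaves most cells have stopped dividing, and a constitutive promoter supplies H4 mRNA independently of replication. H4.V differs from H4 mostly in its tail. The comparison here lists leaf transcripts that differ between WT plants and plants labelled as carrying the H4 transgene, and the H4 protein was not measured.

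Gene levels were read as FPKM, which counts fragments per kilobase of transcript relative to all mapped fragments, and compared as log2(FPKM + 1). The 30384 genes comprise 27588 with a rice identifier, and the rest are loci without one that all libraries list at the same position. Of the 30384, 11204 could be read without ambiguity and averaged 1 FPKM or more in leaves, and 9830 of these had a rice identifier. Differences were tested with limma over all 8 leaf libraries. A gene was called at an unadjusted p under 0.05 with a log2 fold change over 1.5 in either direction, and adjusted p-values are Benjamini-Hochberg values over all genes tested. The tables give no read counts. From the width of the confidence intervals, the depth of WT replicate 2 was 1.10 relative to WT replicate 1, and that of the OE-H4 libraries was 1.12 and 1.41. Loci under 300 bp held 19.9% of the FPKM in WT replicate 1 and 11.5% in OE-H4 replicate 2, against 0.80% in WT replicate 2 and 0.96% in OE-H4 replicate 1. They held 1.18% and 16.7% in the OE-H4.V libraries and 14.6% and 20.6% in the OE-H4.Vs libraries. Replicates of a gene differed by a median of 0.17 on the log2 scale both in WT and in OE-H4. The files and the reference table did not pair names or functions with the identifiers, so that genes are given by identifier and position, pathways were not counted, and leaf marker genes were not checked.

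The WT leaf libraries stood apart from the rest of the series. Among 22648 genes that could be read in all 16 libraries, 68 were listed at 0 in both WT leaf libraries and reached at least 1 FPKM in each of the 14 other libraries, and 55 showed the reverse, with at least 1 FPKM in both WT leaf libraries and 0 in all 14 others. The 14 other libraries include the 4 WT seedling libraries, which carry the same genotype and cultivar labels. For the pairs of OE-H4, OE-H4.V and OE-H4.Vs leaves, neither count exceeded 3. Among seedling pairs the largest such count was 26, of genes present in untreated WT seedlings alone. Within leaves alone, 100 genes were at 0 in WT and present in all 6 OE libraries, and 83 were present in WT and at 0 in all 6 OE libraries. For the 3 OE pairs set against the other 6 leaf libraries these counts lay between 0 and 11. A value of 0 can be a locus that was not assembled, so these genes are described as listed at 0. The WT leaf libraries also had the fewest loci above 0 of the series, with 19209 and 19431. The OE leaf libraries had 19889 to 20775 and the seedling libraries 23806 to 25020. Whether the WT leaf plants had the genetic background that their label shares with the WT seedlings and the OE lines was not tested. Every difference between OE-H4 and WT below rests on the 2 WT leaf libraries, so that a difference in background and the H4 transgene cannot be told apart in it. The comparison of OE-H4 with the other OE lines has no WT value in the fold change, although the WT libraries entered the filter on the mean level and the estimate of the spread.

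The over-expressed transcript itself was not analysed here, since the H4 genes could not be matched by name. H4.V could be matched by its position as Os05g0462900, on chromosome 5 from 22743760 to 22744188 (IRGSP1.0). It was at 3369 and 3162 FPKM in the OE-H4.V leaves and was listed at 0 in the 14 other libraries, WT seedlings included. The label of the OE-H4 libraries was therefore not checked by the gene it names.

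In OE-H4 leaves, 823 genes (7.35% of those tested) were called against WT. Of these, 485 were higher (4.33%) and 338 were lower (3.02%) in OE-H4. At an adjusted p under 0.05 (limma), without a limit on the fold change, 1696 genes (15.1%) were higher and 882 (7.87%) were lower. These 2578 genes became 818 without WT replicate 1, 930 without WT replicate 2, 856 without OE-H4 replicate 1 and 1277 without OE-H4 replicate 2. All 823 called genes had OE-H4 replicates that did not overlap the WT replicates, but so did many other genes, as OE-H4 was above both WT libraries in 47.5% and below both in 23.5% of all genes tested. The levels of OE-H4 were shifted upwards as a whole, with a median log2 fold change of 0.18 over all genes tested. When the libraries were scaled by the median of ratios, this median was 0.02 and the called genes were divided almost equally, with 421 higher and 417 lower. At an adjusted p under 0.05 (limma), 1137 genes were then higher and 1198 lower, so that the excess of higher genes depends on the scaling.

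**Figure D1:**
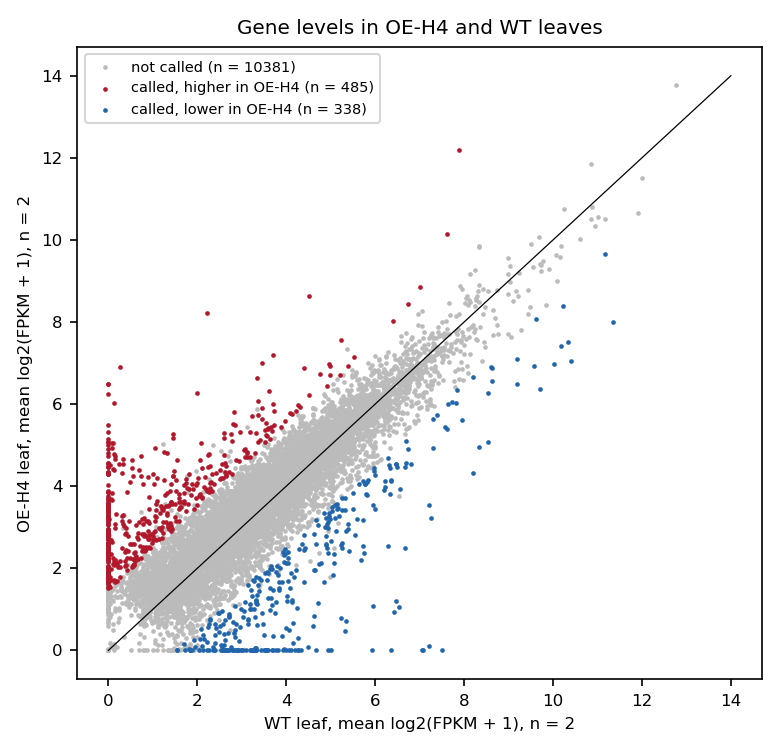
Mean log2(FPKM + 1) of each of the 11204 genes tested in WT leaves (x axis) and OE-H4 leaves (y axis), each the mean of 2 libraries. Red points are the 485 genes called higher and blue points the 338 called lower in OE-H4, grey points were not called, and the line marks equal levels; many called genes lie on an axis, at 0 in one of the groups.

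Part of the called genes were listed at 0 in one of the groups, and are referred to as switched. Of the 485 higher genes, 159 were listed at 0 in both WT libraries, and their mean level in OE-H4 ran from 1.86 to 89.4 FPKM with a median of 5.75. Of the 338 lower genes, 70 were listed at 0 in both OE-H4 libraries, with a WT mean between 1.93 and 180.2 FPKM and a median of 8.53. Among the called genes above 0 in both groups, the median log2 fold change was 2.00 over 326 higher genes and -2.11 over 268 lower genes.

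Most of the switched genes had the same state in the other OE lines. Of the 159 genes at 0 in WT leaves, 129 were above 0 in all 6 OE libraries, and of the 70 genes at 0 in OE-H4, 43 were at 0 in all 6. The seedling libraries, which share no library with the leaf comparison, were then read at these genes. Of 111 of the 129 genes that had a seedling value, 93 reached at least 1 FPKM in both untreated WT seedling libraries and 7 were at 0 in both. Of 42 of the 43 genes that had one, all 42 were at 0 in both untreated WT seedling libraries. At these genes the WT seedlings mostly had the state of the OE leaves and not that of the WT leaves. The genes were chosen for a difference between WT and OE leaves, and the same shares over all genes were not counted. By a looser measure, 9952 of the 11204 genes tested in leaves also averaged 1 FPKM or more over the seedling libraries.

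**Figure D2:**
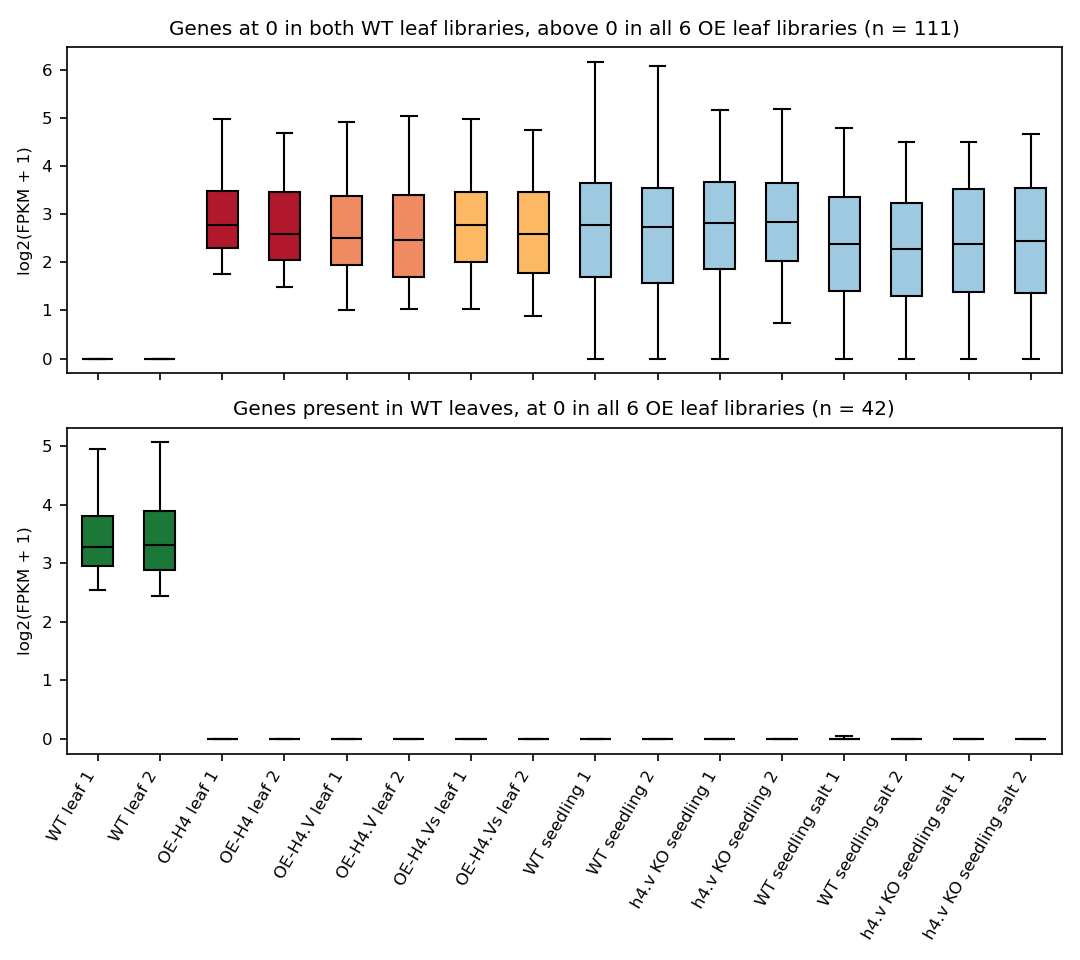
Levels of switched genes in all 16 libraries, as log2(FPKM + 1), with boxes from the first to the last quartile, the median as a line and whiskers from the 5th to the 95th percentile of genes. In the upper panel, 111 genes absent from WT leaves are present in the OE leaves and in most seedling libraries, and in the lower panel 42 genes present in WT leaves have their boxes at 0 in the other 14 libraries.

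Graded differences were then included, by the distance between libraries. WT libraries lay more than 1 on the log2 scale from all 6 OE libraries in 347 genes (3.10% of those tested), with WT lower in 223 and higher in 124. This held for 205 of the 485 genes called higher in OE-H4 and for 117 of the 338 called lower. The calls without these genes were 501, of which 280 were higher and 221 lower in OE-H4. At 198 of the 223 genes with a seedling value, the untreated WT seedlings were both above the midpoint between WT and OE leaves in 150 and both below it in 37. At 119 of the 124, they were both on the OE side in 82 and both on the WT leaf side in 34. These genes too were chosen by their leaf values, and no share over all genes was counted. By contrast, the OE-H4 libraries lay more than 1 from all 6 other leaf libraries in 103 genes (0.919%), being above them in 45 and below them in 58.

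At the largest changes against WT, one of the groups was listed at 0 or held under 1 FPKM. The gene with the largest rise, Os07g0546700, spans 21672642 to 21674132 on chromosome 7. Its level was 0 and 0.453 FPKM in WT leaves, whereas OE-H4 had 122.9 and 113.9 FPKM, a log2 fold change of 6.63 ± 0.23 (SE, adjusted p = 1.2e-05, limma). OE-H4.V leaves held 103.1 and 100.3 FPKM, OE-H4.Vs leaves 148.2 and 105.0 FPKM, and untreated WT seedlings 126.1 and 144.7 FPKM, so that only the WT leaves were low. The next, a locus of chromosome 8 that has no identifier (5691120 to 5697423), had 85.7 and 93.1 FPKM in OE-H4 and neither WT leaf library listed it above 0. Its values in untreated WT seedlings were 38.4 and 39.5 FPKM.

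The largest falls had the opposite form. WT leaves held 184.7 and 175.6 FPKM of Os06g0347100 (chromosome 6, 13947426 to 13951272), which was listed at 0 in all 6 OE leaf libraries and in both untreated WT seedling libraries. Os03g0385400 (chromosome 3, 15307624 to 15309776) fell from 152.5 and 143.7 FPKM in WT to 0.0761 and 0.0605 FPKM in OE-H4, by 7.12 ± 0.17 on the log2 scale (SE, adjusted p = 4.6e-06, limma). It was also under 1 FPKM in the other 4 OE libraries, and untreated WT seedlings had 11.99 and 13.5 FPKM, between the WT and OE leaves.

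Genes called higher in OE-H4 also occurred as neighbours. There were 5 runs of at least 4 consecutive tested genes that were all called higher, with 23 genes in all, and none of genes called lower, where the longest run had 3. The run on chromosome 3 (17008027 to 17054293, 4 genes, Os03g0411800 to Os03g0412400) was at 0 to 0.238 FPKM in the WT leaves and at 4.29 to 36.98 FPKM in OE-H4. The run on chromosome 4 (12836598 to 13155441, 5 genes, Os04g0293100 to Os04g0297800) included 4 genes that were at 0 in both WT libraries, and the OE-H4 values ran from 3.39 to 35.2 FPKM. The run on chromosome 6 (2685128 to 2709709, 5 genes, Os06g0152000 to Os06g0152400) was graded, with log2 fold changes from 1.61 to 2.90 and no gene at 0 in both WT libraries.

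Chromosome 9 held both remaining runs, and also the largest share of genes called higher. One run reached from 14992918 to 15211873 (5 genes, Os09g0417800 to Os09g0421166) and the other from 16029442 to 16084120 (4 genes, Os09g0436000 to Os09g0436700). In the former, Os09g0417800 had 19.7 and 1.30 FPKM in OE-H4 and missed the adjusted threshold (adjusted p = 0.12, limma), so that this run rests on the unadjusted call. On chromosome 9, 48 of 613 tested genes (7.83%) were called higher, against 4.33% over all chromosomes and 2.52% on chromosome 5, which had the smallest share. Genes called lower took the largest share on chromosome 6, with 44 of 925 genes (4.76%).

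The genes of these runs were also read in WT seedlings. They were chosen for WT leaf levels below those of OE-H4, and the share over all genes tested was not counted. In 22 of the 23 genes both untreated WT seedling libraries lay above both WT leaf libraries. The exception was the gene without identifier on chromosome 4 (12989808 to 12996145), with 1.47 and 1.43 FPKM in seedlings, 2.36 and 2.12 FPKM in WT leaves and 13.2 and 13.3 FPKM in OE-H4. The chromosome 9 run from Os09g0436000 was called higher for all 4 of its genes in both other OE lines, whereas the run from Os09g0417800 was called for 2 of 5 genes in each. The chromosome 3 run was called higher for 3 of 4 genes in OE-H4.V and for all 4 in OE-H4.Vs. The runs on chromosomes 4 and 6 were each called higher for 4 of 5 genes in both lines. All genes tested were called, in either direction, in 4.03% for OE-H4.V and 4.67% for OE-H4.Vs, and these lines were compared with the same WT libraries.

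**Figure D3:**
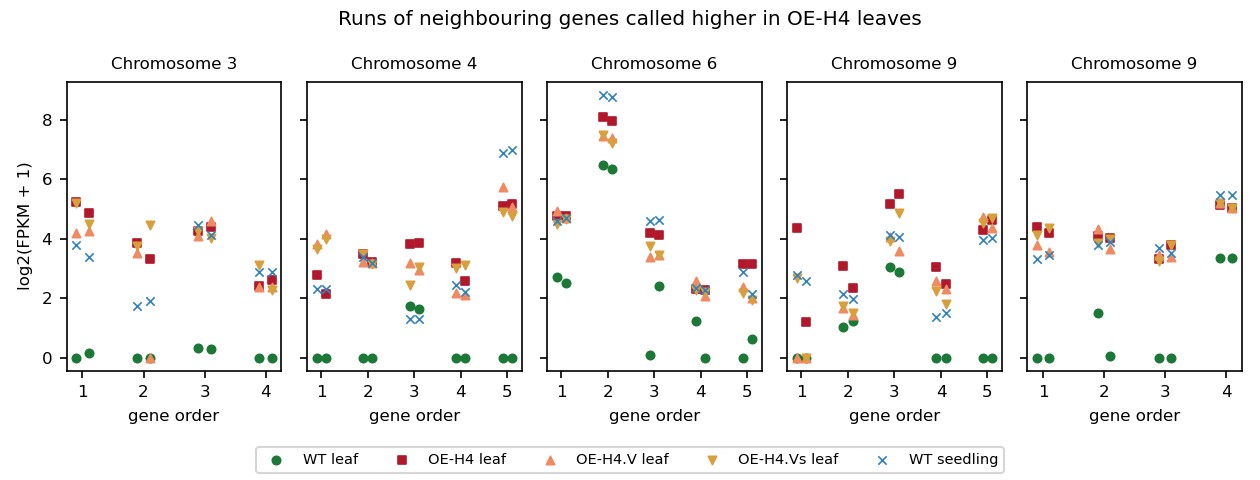
Levels of the genes in the 5 runs, as log2(FPKM + 1), in the order of the genes on the chromosome, with 1 point per library. WT leaf values (green circles) lie below the OE-H4 values (red squares) at every gene, a difference for which the genes were chosen. The WT seedlings (blue crosses) lie above the WT leaves in 22 of the 23 genes.

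To see where OE-H4 leaves differed from leaves of plants that were also transformed, OE-H4 was compared with the mean of OE-H4.V and OE-H4.Vs. A gene can also be called by this contrast where only OE-H4.V or only OE-H4.Vs departs. A gene called lower on chromosome 3 (4216734 to 4219053) was at 0 and 0.0376 FPKM in OE-H4. It was listed at 0 in WT and OE-H4.V leaves, whereas OE-H4.Vs leaves held 12.5 and 20.5 FPKM. How many called genes differed from both lines was not counted. In this comparison 201 genes (1.79%) were called, 91 higher (0.812%) and 110 lower (0.982%) in OE-H4. An adjusted p under 0.05 (limma) held for 112 of them, of which 47 were higher (0.419% of genes tested) and 65 lower (0.58%). Under median-of-ratios scaling, 73 were higher and 127 lower. When the WT libraries were left out of the estimate of the spread, 183 genes were called, 181 of them among the 201, but genes at an adjusted p under 0.05 without a fold limit fell from 357 to 54 (limma). Among genes above 0 on both sides, the median log2 fold change was 1.88 over 88 higher genes and -2.02 over 91 lower genes.

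At the 201 genes, WT leaf values were read beside those of the OE lines. The mean WT level lay nearer to the mean of OE-H4.V and OE-H4.Vs than to OE-H4 in 78 of the 91 higher and 84 of the 110 lower genes. By the fit without WT libraries, it did so in 71 of 83 higher and 79 of 100 lower genes. Since the genes were chosen for a difference between OE-H4 and the other OE lines, these counts are a description and were not tested. Over the 91 genes, the median log2(FPKM + 1) was 1.52 and 1.60 in the WT libraries, 3.91 and 3.72 in OE-H4 and between 1.55 and 2.30 in the other OE libraries. Over the 110 genes, it was 3.90 and 3.74 in WT, 1.38 and 1.35 in OE-H4 and between 3.77 and 4.25 in the other OE libraries.

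**Figure D4:**
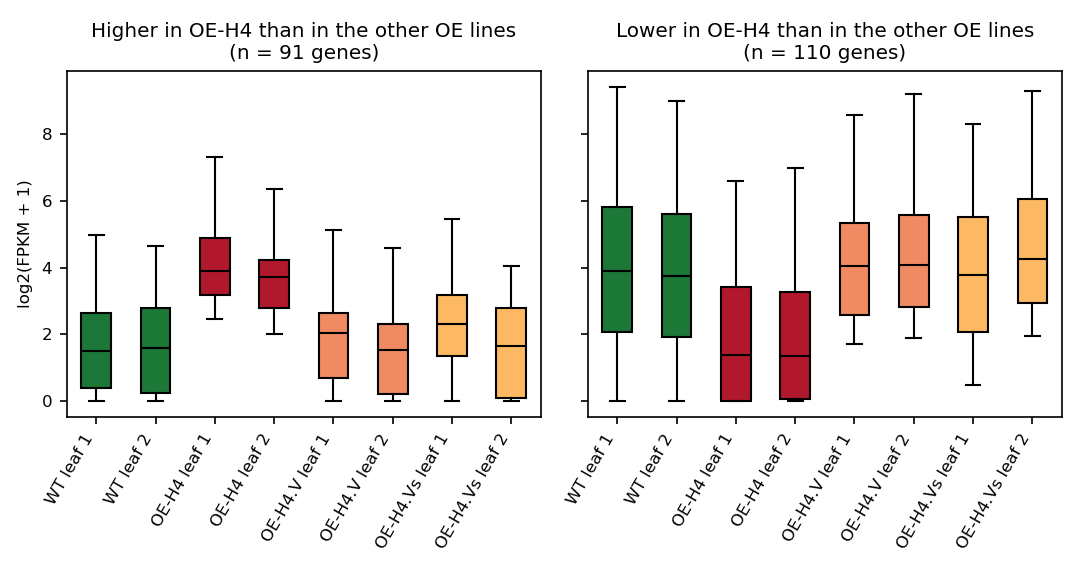
Levels, as log2(FPKM + 1), of the 91 genes called higher and the 110 called lower in OE-H4 than in the other OE lines, in the 8 leaf libraries, with boxes from the first to the last quartile, the median as a line and whiskers from the 5th to the 95th percentile of genes. The genes were chosen for the difference between OE-H4 (red) and the other OE lines, and the medians of the WT libraries (green) lie near those of OE-H4.V and OE-H4.Vs.

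Os12g0264500 (chromosome 12, 9350914 to 9365572) had the largest rise over the other OE lines, with a log2 fold change of 4.52 ± 0.29 (SE, adjusted p = 0.0029, limma). Its values were 46.4 and 77.1 FPKM in OE-H4, while OE-H4.V leaves held 0.300 and 0.0848 FPKM and OE-H4.Vs leaves 3.97 and 6.07 FPKM. WT leaves, at 14.6 and 24.1 FPKM, lay between the lines, so that OE-H4 was above and both other lines were below WT. With a plain sum of loci its log2 fold change was 2.80 and the adjusted p was 0.11 (limma). Untreated seedlings held 87.4 and 57.3 FPKM in WT and 87.6 and 83.9 FPKM in h4.v KO plants, which carry a loss of function of H4.V. Under salt, WT seedlings held 48.03 and 48.05 FPKM and h4.v KO seedlings held 1.42 and 1.5 FPKM.

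The next largest rise belonged to a gene that no other leaf library listed above 0. Os07g0136300 (chromosome 7, 1912083 to 1914175) reached 7.14 and 17.02 FPKM in OE-H4 and was listed at 0 in the 6 other leaf libraries. Of the called genes, 3 had this form, and the other two, named after their values were seen, were Os07g0136500 (chromosome 7, 1928640 to 1930430, 4.89 and 12.6 FPKM) and Os03g0341600 (chromosome 3, 12739354 to 12740552, 12.4 and 3.41 FPKM). Os07g0136300 and Os07g0136500 both had the higher value in OE-H4 replicate 2, and Os03g0341600 had it in replicate 1. Os03g0341600 was at 61.2 and 63.5 FPKM in untreated WT seedlings, whereas Os07g0136300 was at 1.62 FPKM in 1 h4.v KO seedling library with salt and listed at 0 in all other seedling libraries. Untreated seedlings held 0 and 1.70 FPKM of Os07g0136500 in WT and 0 in both h4.v KO libraries. With salt, WT seedlings held 4.24 and 3.58 FPKM of it, and h4.v KO seedlings 6.02 and 3.83 FPKM.

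Among the genes called lower against WT, 12 were listed at 0 in OE-H4 and above 0 in the 6 other leaf libraries. One of them, Os12g0630100 (chromosome 12, 26956203 to 26956894), had 3.40 and 2.82 FPKM in WT, while OE-H4.V leaves held 14.5 and 13.2 FPKM and OE-H4.Vs leaves 97.8 and 20.5 FPKM. Against the other OE lines its adjusted p was 0.013, and 0.065 when only the libraries compared were fitted (limma). With loci under 300 bp left out, Os12g0630100 no longer passed the filter on the mean level, so its values rest on such short loci. Os02g0240300 (chromosome 2, 7948543 to 7949997) had 0 and 2.71 FPKM in OE-H4, against values between 40.9 and 130.7 FPKM in the 6 other leaf libraries. It fell by 5.33 ± 0.63 on the log2 scale against the other OE lines (SE, adjusted p = 0.014, limma), with an adjusted p of 0.065 when only the libraries compared were fitted. H4.V itself, which was listed above 0 in the OE-H4.V leaves alone, was left out of this ranking. It remains counted among the 110 genes called lower against the other OE lines, and among the 65 of these with an adjusted p under 0.05 (limma).

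Single genes with large differences from both references, chosen after their values were seen, were Os03g0823400 and Os05g0202800. Os03g0823400 (chromosome 3, 34567109 to 34568087) had 99.6 and 83.9 FPKM in WT, 22.8 to 33.1 FPKM in the other OE lines, and 0.950 and 1.19 FPKM in OE-H4. It fell by 5.48 ± 0.15 against WT (SE, adjusted p = 4.6e-06, limma) and by 3.83 ± 0.13 against the other OE lines (SE, adjusted p = 8.6e-05, limma) on the log2 scale. The values of Os05g0202800 (chromosome 5, 6393899 to 6396069) were 153.5 and 355.5 FPKM in WT, against 5981 and 3695 FPKM in OE-H4, a log2 fold change of 4.32 ± 0.70 (SE, adjusted p = 0.0076, limma). The other OE libraries held 375.9 to 1575 FPKM, and against them the rise of 2.54 ± 0.60 did not pass the adjusted threshold (SE, adjusted p = 0.072, limma). In WT seedlings the same gene was at 132.4 and 119.1 FPKM without salt and at 1180 and 1271 FPKM with salt.

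**Figure D5:**
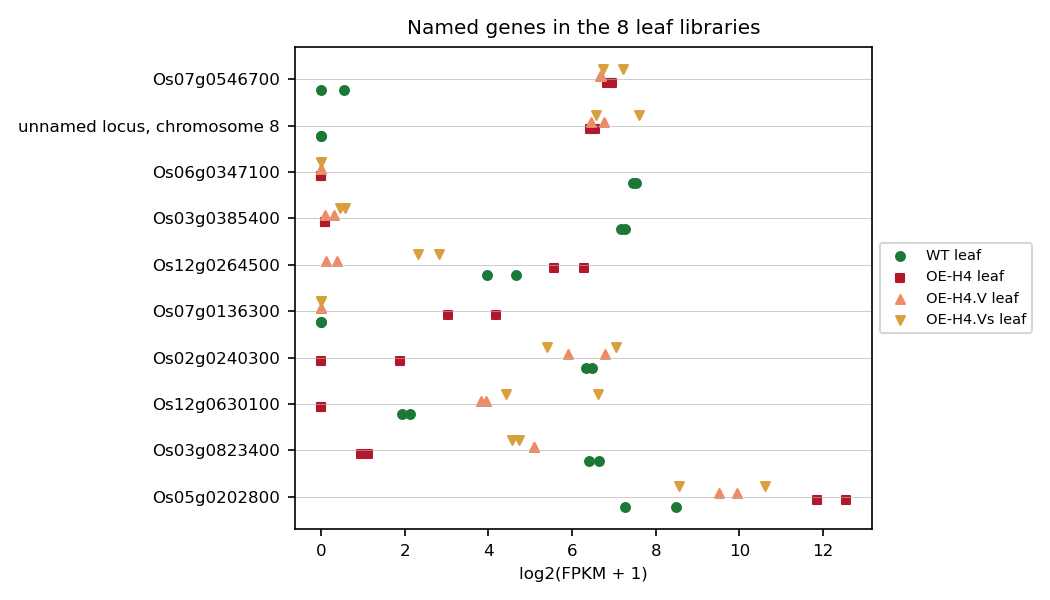
Values of the single genes described, as log2(FPKM + 1), with 1 point per leaf library. At the first 4 genes the OE lines lie together and WT apart; at the others OE-H4 (red squares) lies apart from the other OE lines, with an overlap in no gene shown.

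The called leaf genes were also read in the seedling comparisons, whose libraries are separate from those of the leaves. Of the 9952 genes tested in both tissues, salt lowered 6.84% and raised 2.10% in WT seedlings, and lowered 5.39% and raised 1.17% in h4.v KO seedlings, by the same call rule. Of 243 genes called lower in OE-H4 than in WT leaves, salt lowered 51 (21.0%) and raised 16 (6.58%) in WT seedlings, and lowered 70 (28.8%) and raised 7 (2.88%) in h4.v KO seedlings. Of 396 genes called higher, salt lowered 52 (13.1%) and raised 15 (3.79%) in WT seedlings, and lowered 42 (10.6%) and raised 14 (3.54%) in h4.v KO seedlings. All these shares were above those of all genes tested, in both directions, and no test of this difference was made.

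The genes called against the other OE lines were read in the same way. Of 77 genes higher in OE-H4, salt in WT seedlings lowered 15 (19.5%) and raised 4 (5.19%), and of 93 lower genes it lowered 19 (20.4%) and raised 11 (11.8%), against 6.84% and 2.10% of all genes. The median log2 change with salt in WT seedlings was -0.33 over the 243 genes called lower against WT, -0.08 over the 396 called higher and 0.03 over all 9952 genes. In h4.v KO seedlings these medians were -0.80, -0.14 and -0.17. Over the 93 genes lower than in the other OE lines, the median was 0.01 in WT and -0.51 in h4.v KO seedlings, and over the 77 higher genes it was -0.30 and -0.15. The loss of H4.V without salt raised 15 (6.17%) and lowered 12 (4.94%) of the 243 genes, against 1.30% and 2.92% of all genes. Of the 396 genes it raised 13 (3.28%) and lowered 21 (5.3%). Of the 77 genes it raised 1 (1.3%) and lowered 4 (5.19%), and of the 93 it raised 9 (9.68%) and lowered 5 (5.38%).

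Calls were unevenly spread over gene length and level when the tested genes were divided into 4 groups of equal size. In the group with the shortest spans, up to 2380 bp, 12.6% were called against WT, and in the other groups the share lay between 5.18% and 6.10%. In the group with the lowest mean level, up to 4.07 FPKM, 6.53% were called higher and 4.25% lower. In the group with the highest level, above 21.1 FPKM, the order was reversed, with 2.46% called higher and 3.46% lower. The simulated test of the same fit recovered 97 of 100 genes changed by 2 on the log2 scale and all 100 changed by 3. How well changes are recovered among low, short or switched genes was not tested, and many of the calls lie among these genes.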

How the data were processed

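Reads were trimmed with Trimmomatic, mapped to IRGSP1.0 with HISAT2 and quantified per library with Cufflinks 2.2.1 by the authors, and the deposited tables hold FPKM and its confidence bounds, both of annotated genes and of loci that Cufflinks assembled. The number of reads is not part of the tables used here, and no count test was run.

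Loci were assigned by position (BEDTools 2.31.1) to spans of at least 200 bp, either with an identifier or listed at the same position in all libraries. A locus was used where at least 50% of it lay in the gene and no second gene was covered by 50%. Loci of a gene were added up after multiplying the FPKM of each by the part of the gene it covers. Of 30384 genes, 5443 with ambiguous loci in any leaf library were left out, 2040 of them averaging 1 FPKM or more. Intervals were read as 2 standard deviations on each side for relative depth, over genes with at least 5 fragments in both libraries, which covers counting error only.

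log2(FPKM + 1) was fitted with limma 3.58.1 in R 4.3.3 (trend, 1 mean per group, all 8 leaf libraries). The pseudocount of 1 understates fold changes of low genes. The call limits, an unadjusted p of 0.05 and a log2 fold change of 1.5, follow the study's methods. The fit was tested on simulated data, where 46 unchanged genes were also called. Python 3.11.15, pandas 2.3.3, NumPy 2.4.6 and matplotlib 3.10.9 were used.

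The members, lists and tests were chosen with earlier results of these data known. Named genes were planned as the 5 largest changes in each direction by identifier, of genes with an adjusted p under 0.05 and at least 5 FPKM in the higher group, with runs by their first and last gene. Only 2 in each direction are named, because 0 identifiers matched the reference table (RefSeq, assembly ASM3414082v1) and functions could not be given. For the same reason the planned lists of pathways, the H4 genes and marker genes were not analysed here. Alternatives covered the pseudocount, the filter, scaling, thresholds, locus assignment, the libraries fitted, a replicate block and leaving out each library.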

Additional observations from a re-analysis of the deposited data

Results flagged for a closer look

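The effect against WT was called different between OE-H4 and the other OE lines at 201 genes, by the unadjusted rule. This used the contrast of OE-H4 with the mean of OE-H4.V and OE-H4.Vs, in which the shared WT libraries cancel. An adjusted p under 0.05 (limma) held for 112 of the 201 genes. Among the genes named, the effect differed at Os12g0264500 by 4.52 and at Os02g0240300 by -5.33 on the log2 scale. All groups had 2 libraries, so single outlying libraries were not tested for.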

How the results depend on the processing

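The 823 calls against WT became 463 with a mean of at least 5 FPKM (7786 genes tested), 1632 at a log2 fold change over 1, and 501 without genes set apart in WT leaves, an alternative chosen after seeing the data. The 201 calls against the other OE lines became 334 with a pseudocount of 0.1, 131 with a mean of at least 5 FPKM, 535 at a log2 fold change over 1 and 112 at an adjusted p. Leaving out each library gave 797 to 928 calls against WT and 188 to 287 against the other OE lines, where a lone library is assumed to vary like the other groups. Between these comparisons, replicate numbers did not pair the samples (correlations of deviations of OE-H4 with WT -0.0057, with OE-H4.V 0.0026 and with OE-H4.Vs 0.101), and a replicate block gave 831 and 204 calls. Genes at an adjusted p under 0.05 against the other OE lines, without a fold limit, varied widely in number when 1 library was left out. They were most numerous without OE-H4.Vs replicate 1. No named gene reversed in 136 values over 10 genes under the other settings, and 10 values no longer passed an adjusted p of 0.05, including Os05g0202800 without WT replicate 1 (0.073) or OE-H4 replicate 1 (0.055). Os12g0630100 had no value with loci under 300 bp left out, and Os07g0136300 had none with a mean of at least 5 FPKM, since they failed the filter there. The planned lists were not run. Depth is known only relative to other libraries, so a gene listed at 0 may have been expressed below what was assembled.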

Other observations

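Genes at which OE-H4 lay more than 1 on the log2 scale from all 6 other leaf libraries were read in the seedlings, against the midpoint between OE-H4 and the other leaves. Of 44 such genes that were higher in OE-H4 and had a seedling value, untreated WT seedlings lay on the side of the other leaves in 24 and on the side of OE-H4 in 20. Of 52 that were lower in OE-H4, they lay on the side of the other leaves in 33 and on the side of OE-H4 in 17. No test was made of these counts, and no share over all genes was counted.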
